A study of Mus musculus with 6 samples.

Results

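The 10 genes described here encode interferon-inducible GTPases of 2 families. Gbp2, Gbp3, Gbp4, Gbp5, Gbp6 and Gbp7 are guanylate-binding proteins (GBPs), and Irgm1, Irgm2, Igtp and Iigp1 are immunity-related GTPases (IRGs). They were chosen by name, and all 10 were among the 23282 symbols listed for each library and among the 11279 genes expressed highly enough to be tested. The question was whether their transcript levels differed between activated CD4 T cells with and without the AMP-activated protein kinase (AMPK) subunit α1, which is encoded by Prkaa1. None of the 10 differed past the threshold, where 637 of the 11279 tested genes did.

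CD4 T cells were isolated with magnetic beads from the spleen and lymph nodes of C57BL/6 mice, in 3 samples per genotype. Both groups carried Prkaa1 fl/fl. The AMPK KO cells also carried CD4 Cre, a transgene active in developing T cells of both the CD4 and the CD8 lineage, and the WT cells were negative for it, so that any non-T cells in a preparation keep an intact Prkaa1. Mice were stated to be female and 6 to 8 weeks old. Cells of both groups were rested for 1 h and stimulated with anti-CD3 and anti-CD28 at 2 µg/mL. The length of stimulation is 24 h in the labels and 6 h in the methods text, and no unstimulated group was compared here.

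Interferon-gamma (IFN-γ) binds a receptor of 2 chains, and the kinases JAK1 and JAK2 on it pass the signal to the promoters of target genes, where one kind of element is the gamma-activated site (GAS). Among the genes induced early is Irf1, which encodes a transcription factor that binds the interferon-stimulated response element (ISRE). GBP and IRG genes are classic targets of this cascade. GBPs are large dynamin-like GTPases that coat intracellular pathogens and the vacuoles around them. Among the IRGs, Iigp1 is an effector loaded onto vacuoles, whereas Irgm1, Irgm2 and Igtp are regulators that hold the effectors inactive on the cell's own membranes. Irgm1 is also known to protect activated CD4 T cells from death caused by IFN-γ.

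The genes lie in clusters, with positions given here from GENCODE M21 on GRCm38, the same assembly as the mm10 build of the deposited files. On the plus strand of chromosome 3, Gbp5 (chr3:142493978-142522344), Gbp7 (chr3:142530342-142550149), Gbp3 (chr3:142560026-142573209) and Gbp2 (chr3:142620602-142638008) follow each other. Gbp4 (chr5:105115767-105139586) and Gbp6 (chr5:105270702-105293698) are on the minus strand of chromosome 5. Irgm1 (chr11:48861968-48871683, minus strand) lies apart from Igtp (chr11:58199556-58207591, plus strand) and Irgm2 (chr11:58199618-58222782, plus strand), whose gene models overlap. Iigp1 lies on the plus strand of chromosome 18 (chr18:60376027-60392634).

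RefSeq promoters (GRCm38.p6) of 300 bases, from 250 before to 50 after the transcription start, were found for 7 of the 10 genes: Gbp2, Gbp3, Gbp5, Gbp7, Irgm1, Irgm2 and Igtp. All 7 held the ISRE core searched for, 2 copies of GAAA with any 2 bases between them, on at least 1 strand (for Gbp3, at 1 of its 2 starts). The same was true of 3.99% of all 27025 genes, counted at any start, and of 3.44% of all 32851 promoters. The GAS core TTCNNNGAA, which reads the same on both strands, was present in 4 of the 7 (Gbp5, Gbp7, Irgm2 and Igtp). It was present in 9.55% of all genes and 8.30% of all promoters. No GAS match overlapped an ISRE match in these 7 genes. A match describes the letters only.

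The excerpts below show the elements of Gbp2, of Gbp7 (the GTPase gene with the largest difference between the genotypes) and of the neighbours Igtp and Irgm2, followed by that of Irf1, a gene that did differ. They are read 5′ to 3′ on the gene's own strand, which is the plus strand for all 5, and capitals mark ISRE and GAS matches, on either strand.
Gbp2, chr3:142620569-142620648: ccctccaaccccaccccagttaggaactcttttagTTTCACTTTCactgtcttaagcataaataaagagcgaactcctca
Gbp7, chr3:142530248-142530327: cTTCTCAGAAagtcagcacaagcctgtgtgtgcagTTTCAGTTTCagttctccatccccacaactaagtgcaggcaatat
Igtp, chr11:58199487-58199566: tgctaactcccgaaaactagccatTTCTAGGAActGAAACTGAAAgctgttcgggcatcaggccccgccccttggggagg
Irgm2, chr11:58214878-58214957: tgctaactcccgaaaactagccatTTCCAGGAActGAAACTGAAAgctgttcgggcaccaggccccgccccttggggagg
Irf1, chr11:53769889-53769967: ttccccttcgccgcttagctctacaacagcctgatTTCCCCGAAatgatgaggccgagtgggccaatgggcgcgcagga
The ISRE match began 59 bases before the start in Gbp2, 53 in Gbp7, 34 in Igtp and 64 in Irgm2. The GAS match of Irf1 began 90 bases before 1 of its starts, and the promoter of its other start held 0 GAS matches. The Igtp and Irgm2 promoters shared an identical stretch of 61 bases, while no other pair of the 7 genes shared more than 13. In Gbp7 both elements are present but lie apart, whereas in Igtp and Irgm2 they are separated by a few bases.

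The libraries were QuantSeq 3′ libraries, in which reads come from the ends of polyadenylated transcripts, and held 9575096 to 11185360 reads on genes. The ribosomal repeat Rn45s took between 20.7% and 24.9% of each WT library and between 8.48% and 10.8% of each AMPK KO library. Prkaa1 gave 4.64, 5.24 and 4.86 in WT and 4.08, 4.72 and 4.67 in AMPK KO on the deposited scale, log2(normalised CPM + 1), and did not pass the test (log2 fold change -0.42 ± 0.25 (SE, n = 3 per group), limma adjusted p = 0.357); the sources do not give the deleted exon, and 3′ reads need not cover it. Xist gave 0.93 to 2.16 in WT and 7.55 to 7.92 in AMPK KO, and the Y-linked Ddx3y 8.44 to 8.53 in WT and 6.93 to 7.28 in AMPK KO, so that both groups held Y-linked transcripts, against the stated sex, and a difference in sex between the groups cannot be told apart from genotype in any result below. Of the 11279 genes, 287 were higher and 350 lower in AMPK KO (limma, adjusted p under 0.05). In such preparations, fewer cells of a type and less RNA per cell cannot be told apart.

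On chromosome 3, Gbp2, which acts on bacterial and parasite vacuoles, gave 4.94, 5.06 and 5.02 in WT (replicates 1, 2 and 3, the order used throughout) and 5.07, 4.61 and 5.27 in AMPK KO. The WT values lay within those of AMPK KO, and the means were almost equal (log2 fold change -0.02 ± 0.22 (SE, n = 3 per group), limma adjusted p = 0.971). Gbp3 gave 4.98, 4.09 and 4.47 in WT and 4.74, 4.56 and 4.99 in AMPK KO, with overlapping groups and a log2 fold change of 0.25 ± 0.26. Gbp5, which promotes inflammasome assembly, gave 3.91, 4.75 and 4.02 in WT and 4.53, 4.42 and 3.94 in AMPK KO. Its groups overlapped too, at 0.07 ± 0.29.

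Gbp7, the gene between Gbp5 and Gbp3, had the largest difference of the 10. It gave 6.77, 6.95 and 6.52 in WT (995, 1230 and 803 reads) and 6.41, 5.45 and 6.29 in AMPK KO (996, 458 and 919 reads). Every AMPK KO sample lay below every WT sample, and the mean was 0.617-fold that of WT (95% interval 0.441 to 0.863). The log2 fold change of -0.70 ± 0.23 (SE, n = 3 per group) did not pass the threshold (limma, adjusted p = 0.0875, unadjusted p = 0.0079), and over the 15 alternatives its adjusted p ranged from 0.0541 to 0.268. The second AMPK KO sample set much of the size: without it the log2 fold change was -0.40 (limma adjusted p = 0.131).

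On chromosome 5, Gbp4 gave 5.59, 6.35 and 5.63 in WT and 6.06, 5.47 and 6.18 in AMPK KO, with overlapping groups and a log2 fold change of 0.05 ± 0.24. Gbp6 gave 4.19, 4.62 and 4.31 in WT and 3.91, 3.73 and 3.94 in AMPK KO. Every AMPK KO sample of Gbp6 lay below every WT sample, by a log2 fold change of -0.52 ± 0.25 (SE, n = 3 per group), which did not pass the test (limma, unadjusted p = 0.061, adjusted p = 0.259). Gbp6 shares much of its 3′ end with other genes: of the 50-base stretches in the last 500 bases of its transcripts, 77.8% also occur in Gbp9, Gbp10 or the read-through model Gm43302. For Gbp4 the share was 19.4%, and for the other 8 genes at most 3.96%. The values of Gbp6 may therefore include reads of Gbp9 and Gbp10, 2 relatives whose own AMPK KO values also lay below those of WT (log2 fold changes -0.62 and -0.44, limma adjusted p = 0.103 and 0.399).

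Of the regulatory IRGs, Irgm1 was the gene with the fewest reads, 46 to 128 a sample. It gave 2.93, 2.49 and 3.17 in WT and 3.56, 2.52 and 3.03 in AMPK KO, with overlapping groups and a log2 fold change of 0.17 ± 0.37. Igtp, also known as Irgm3, gave 7.55, 7.44 and 7.66 in WT and 7.45, 7.46 and 7.001 in AMPK KO. Its groups overlapped, and its log2 fold change of -0.24 ± 0.16 was the most precisely measured of the 10.

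Irgm2 gave 4.26, 4.86 and 4.66 in WT (167, 280 and 215 reads) and 4.88, 2.91 and 5.36 in AMPK KO (338, 70 and 475 reads). The AMPK KO group held both the lowest and the highest of the 6 samples, and its SD of 1.298 was the widest of the 10 genes, against 0.31 in WT. The log2 fold change was -0.21 ± 0.46 (SE, n = 3 per group, limma adjusted p = 0.836), but 0.53 without the second AMPK KO sample and -0.69 without the third. Igtp, whose promoter shares the 61 bases, stood in the second AMPK KO sample at 7.46, between its other values. Irgm2 in AMPK KO is thus not described by its mean.

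Iigp1, the effector IRG, gave 5.04, 5.47 and 5.15 in WT and 5.66, 5.29 and 5.91 in AMPK KO. The groups overlapped by the second sample of each. Its mean was 1.32-fold that of WT (95% interval 0.962 to 1.80), the largest of the differences upward (log2 fold change 0.40 ± 0.21 (SE, n = 3 per group), limma adjusted p = 0.302).

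**Figure D1:**
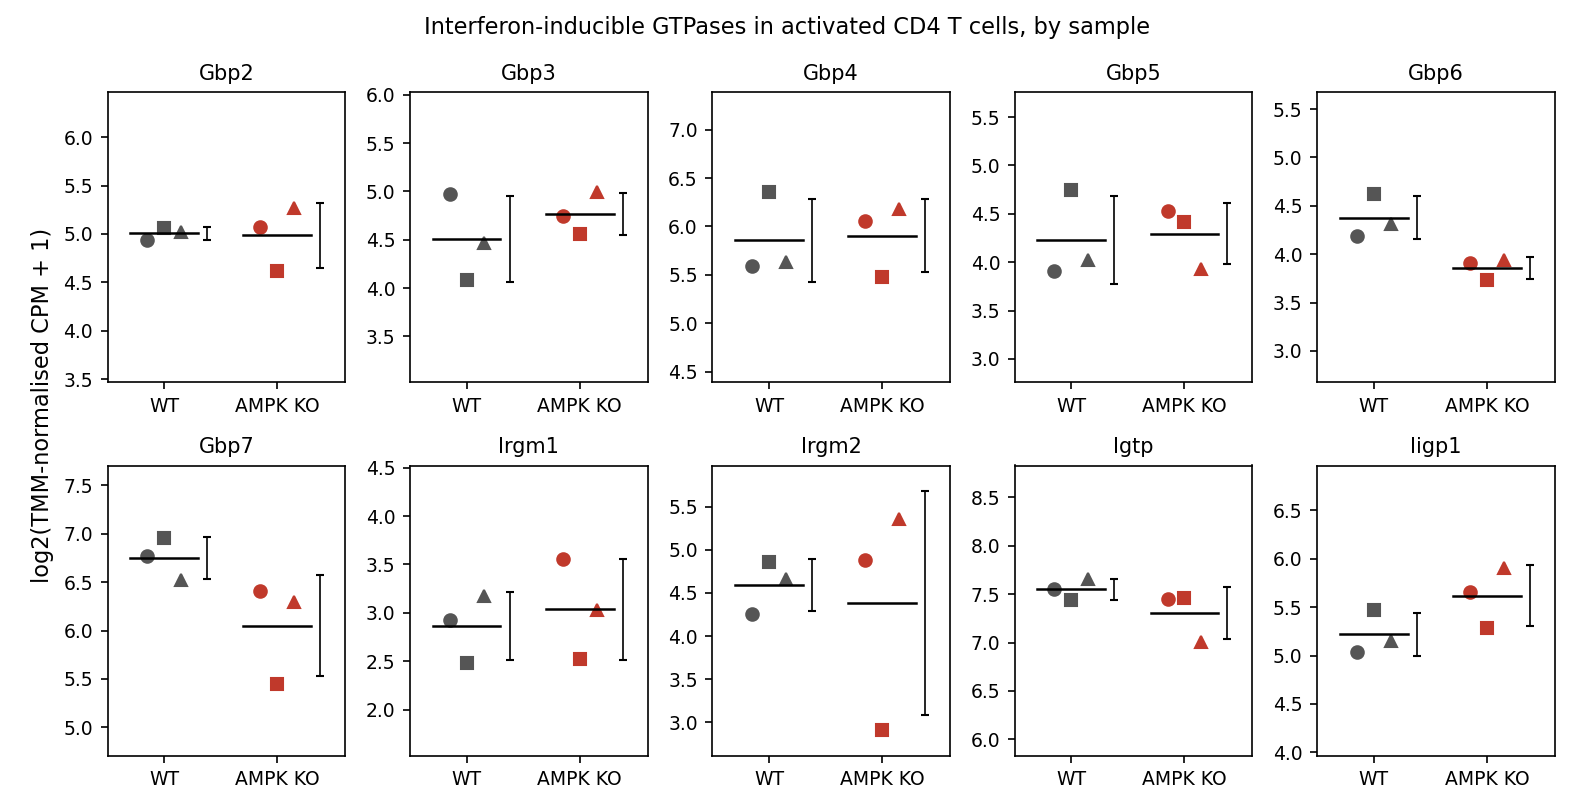
Values of the 10 GTPase genes, as log2(TMM-normalised CPM + 1), in 3 WT samples (grey) and 3 AMPK KO samples (red), with circle, square and triangle for replicates 1, 2 and 3, a line at the mean and a bar of 1 SD on each side. Each panel has its own axis, and only Gbp6 and Gbp7 have groups that do not overlap.

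As a group, 0 of the 10 genes were called higher and 0 lower, where 2.54% of all tested genes were called higher and 3.10% lower. At an unadjusted p under 0.05 there was 1 of 10, Gbp7, where 21.3% of all tested genes were under it, and voom on the recovered reads also called 0. Means were higher in AMPK KO for 5 genes and lower for 5, and the median log2 fold change was 0.01, beside 0.02 over all tested genes. In 2 of the 10, Gbp6 and Gbp7, every AMPK KO sample lay below every WT sample, and in 0 above, where 14.0% of all tested genes were wholly below and 11.6% wholly above. For 7 of the 10 genes the 95% interval lay within a 2-fold change in either direction, and the exceptions were Gbp6, Gbp7 and Irgm2. The standard errors ran from 0.16 (Igtp) to 0.46 (Irgm2) on the log2 scale.

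The spread within AMPK KO was not even. The second AMPK KO sample held the lowest of the 6 values for 5 of the 10 genes, namely Gbp2, Gbp4, Gbp6, Gbp7 and Irgm2, where it held the lowest for 2261 of the 11279 tested genes. Averaged over the 10 genes, this sample stood at -0.41 relative to the 6-sample mean on the log2 scale, and the other 5 samples stood between -0.04 and 0.17. Summed over the 10 genes, the level was 489 to 550 CPM in WT, and 507, 390 and 479 CPM in AMPK KO samples 1, 2 and 3. Without the second AMPK KO sample, groups did not overlap for 5 genes: Gbp6 and Gbp7 stayed lower, and Gbp2, Irgm2 and Iigp1 were higher in AMPK KO, of which 0 passed the test (lowest limma adjusted p = 0.0868, Iigp1). With that sample left out, 21.6% of all tested genes were wholly below WT and 21.2% wholly above, so that these counts were near the background. Without the second WT sample 4 genes did not overlap, with Igtp also lower and Iigp1 higher, where 20.8% of all tested genes were wholly below and 19.8% wholly above.

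**Figure D2:**
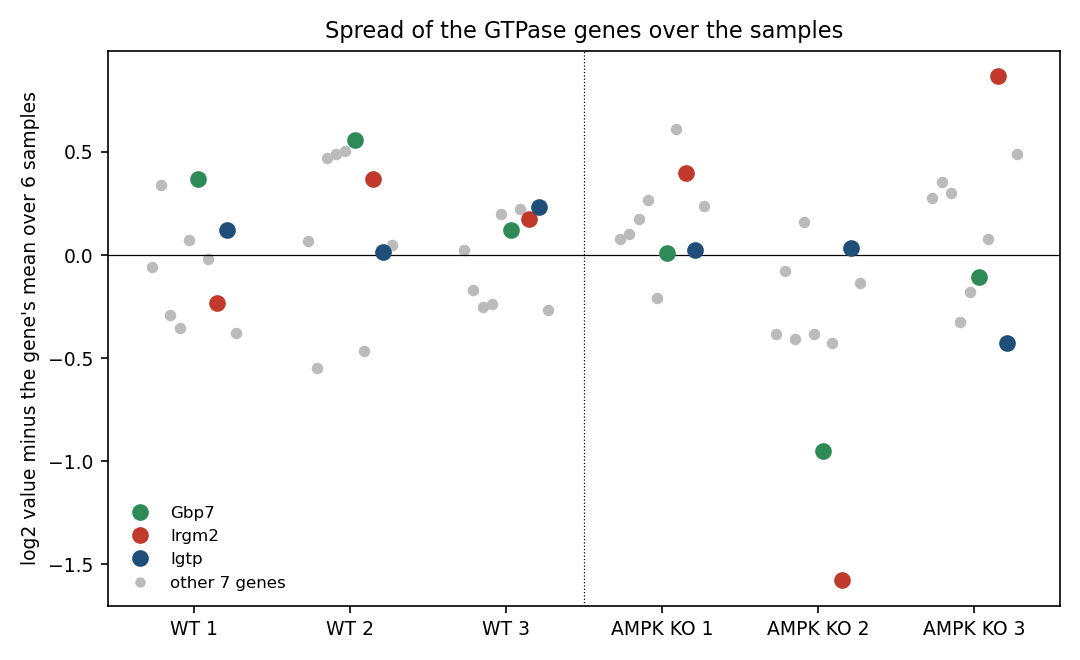
Each point is a gene's log2 value minus that gene's mean over the 6 samples, shown for the 10 GTPase genes in each sample, with Gbp7, Irgm2 and Igtp in colour and the other 7 genes in grey. AMPK KO sample 2 holds the lowest value of 5 genes, with Irgm2 lowest of all, while Igtp stays near 0 there.

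By the root mean square distance of centred log2 values over the 6 samples, the genes nearest to the mean profile of the 10 were Vegfa (0.048), Rnf166 (0.054), Kctd6 (0.055), Ctdspl2 (0.058) and Cisd2 (0.064). Vegfa, a growth factor gene, stood 0.43 below its mean in the second AMPK KO sample and 0.26 above it in the first. The likeness is to the sample pattern only, since the log2 fold changes of these 5 genes were between -0.13 and -0.06.

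Of 20 listed relatives found in the files, 16 were tested, 13 of them GBP and IRG genes and 3 from the chromosome 7 cluster of very large inducible GTPases (Gvin1, Gm4070 and Gm1966). Of the 13 GBP and IRG genes 0 were called by limma and 0 by voom, where limma called 2.54% of all tested genes higher and 3.10% lower. At an unadjusted p under 0.05 (limma) there were 4 of the 13, where 21.3% of all tested genes were under it. The single call among the 16 was Gm1966, annotated as a pseudogene, which gave 6.64, 7.04 and 6.91 in WT and 6.40, 6.15 and 6.28 in AMPK KO, at a log2 fold change of -0.58 ± 0.16. Its adjusted p of 0.0499 (limma) was at the threshold, and leaving out any 1 sample other than the second AMPK KO sample ended the call (adjusted p 0.0871 to 0.193). The median log2 fold change was -0.44 over the 13, 0.33 over the 3 very large inducible GTPases and -0.26 over all 16. Of these 3, Gvin1 (0.42 ± 0.19, limma adjusted p = 0.217) and Gm4070 (0.33 ± 0.17, 0.272) had higher means in AMPK KO and were not called.

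Of the 16, every AMPK KO sample lay below every WT sample for 5 (Gbp9, Gbp10, Gbp11, 9930111J21Rik1 and Gm1966) and above for 3 (Tgtp1, Tgtp2 and Gm4841), where 14.0% and 11.6% of all tested genes did. Gm4841, with 5 to 68 reads a sample, stood at 1.28 ± 0.44 (limma adjusted p = 0.1001), and Gbp11, with 15 to 31 reads, at -0.82 ± 0.40 (0.250). Tgtp1 and Tgtp2 are near-identical effector IRGs also called Irgb6. Tgtp1 gave 5.33, 5.55 and 5.21 in WT and 5.93, 5.90 and 6.08 in AMPK KO, with every AMPK KO sample above every WT sample (log2 fold change 0.61 ± 0.18 (SE, n = 3 per group), limma adjusted p = 0.0612). Tgtp2 gave 5.38, 5.64 and 5.38 in WT and 6.01, 5.95 and 5.99 in AMPK KO, again without overlap (0.52 ± 0.17, limma adjusted p = 0.0979). Reads may be split between these copies. Tgtp1 passed the threshold when the second AMPK KO sample (limma adjusted p = 0.0373) or the second WT sample (0.0494) was left out. In the former case 4 relatives passed: Tgtp1, Gm1966, Gvin1 (limma adjusted p = 0.0183, higher) and Gm4070 (0.0223, higher). That fit called 1243 of all genes, against 637 with all 6 samples. Ifi47 (Irgd) stood at -0.05 ± 0.15, and Gm12250 (Irgb10), added after its values were seen, at -0.13 ± 0.29.

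**Figure D3:**
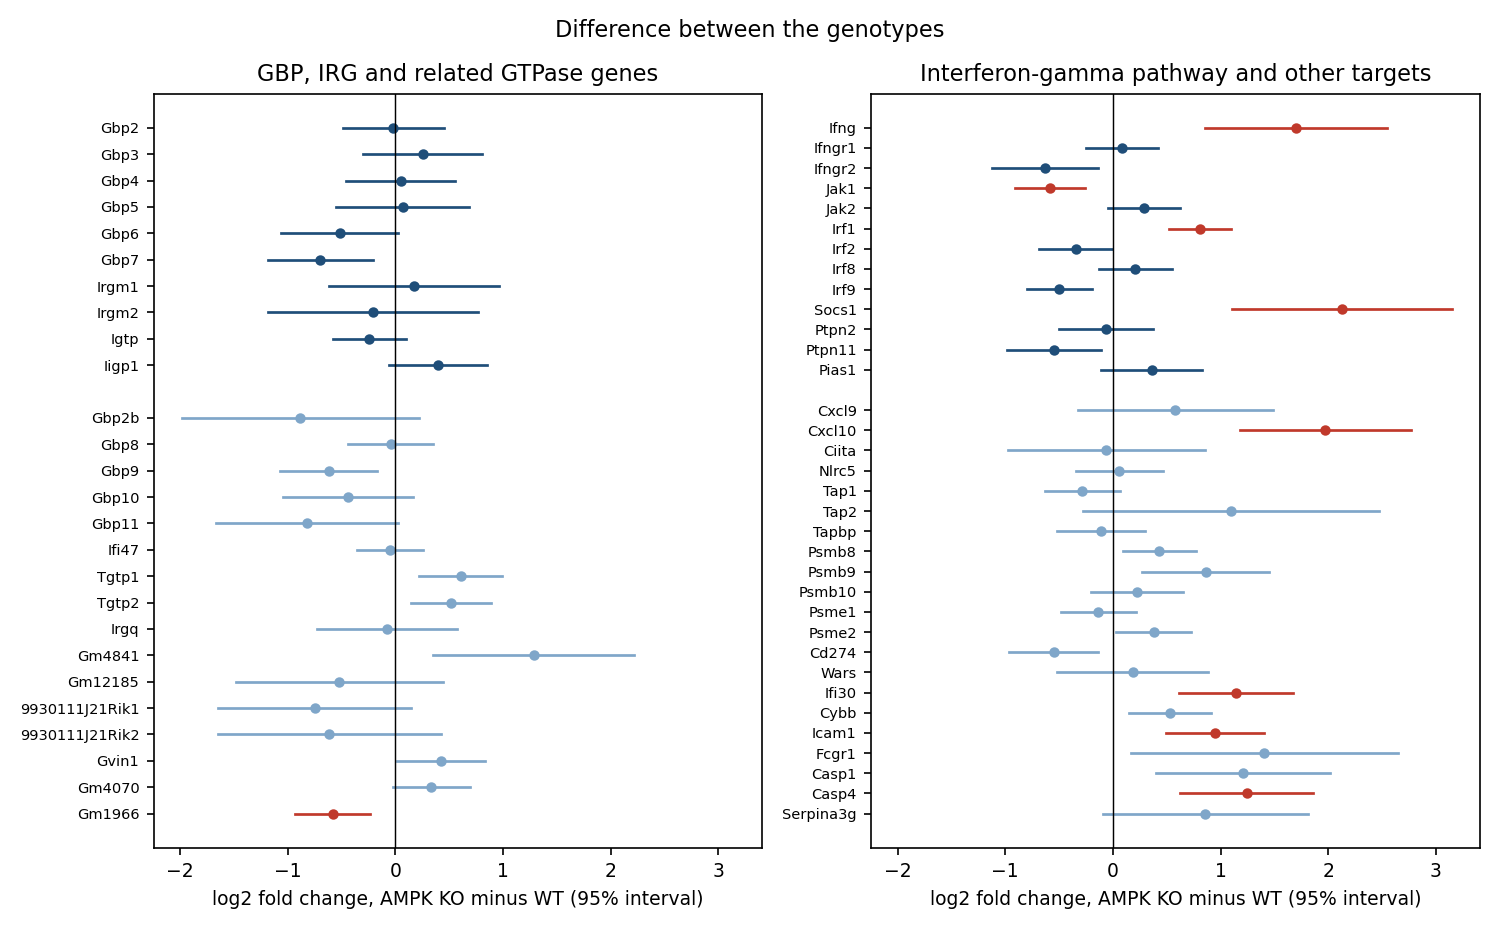
Log2 fold change of AMPK KO minus WT with its 95% interval (limma), for the 10 GTPase genes (dark) and 16 relatives (light) on the left, and for 13 IFN-γ ligand, receptor and signalling genes (dark) and 21 other IFN-γ targets (light) on the right; genes past the threshold are red. None of the 10 GTPase genes is red, 1 relative is (Gm1966), and on the right Socs1, Cxcl10 and Ifng stand furthest above 0 among the red genes.

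Of 13 tested genes that carry the IFN-γ signal, 3 were called higher (Ifng, Irf1 and Socs1) and 1 lower (Jak1), where 2.54% of all tested genes were called higher and 3.10% lower. The median over the 13 was 0.08 on the log2 scale, beside 0.02 over all tested genes. The ligand Ifng gave 2.12, 4.10 and 3.45 in WT (31, 161 and 88 reads) and 4.91, 5.17 and 4.71 in AMPK KO (344, 376 and 299 reads). Every AMPK KO sample lay above every WT sample, by a log2 fold change of 1.70 ± 0.40 (SE, n = 3 per group, limma adjusted p = 0.0231). The call was lost without the first WT sample (0.0866), the third WT sample (0.0809) or the first AMPK KO sample (0.0931).

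Of the receptor chains, Ifngr1, the ligand-binding chain, gave 9.58, 9.41 and 9.59 in WT and 9.49, 9.94 and 9.40 in AMPK KO, with a log2 fold change of 0.08 ± 0.16. Ifngr2, the chain that limits the response in T cells, gave 6.44, 6.69 and 6.09 in WT and 5.85, 5.26 and 6.21 in AMPK KO. Its groups overlapped by 1 sample, and its log2 fold change of -0.63 ± 0.23 (SE, n = 3 per group) did not pass the test (limma adjusted p = 0.127), except without the third AMPK KO sample (0.0360). Jak1 fell from 11.03, 10.76 and 11.01 in WT to 10.25, 10.57 and 10.23 in AMPK KO (log2 fold change -0.59 ± 0.15, limma adjusted p = 0.0383), a call kept only without the second WT sample (0.0329) or the second AMPK KO sample (0.0009) when 1 sample was left out.

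Irf1 gave 9.07, 9.16 and 9.06 in WT and 9.77, 10.04 and 9.91 in AMPK KO, all above WT (0.81 ± 0.14, limma adjusted p = 0.0034), and it stayed past the threshold whichever sample was left out (adjusted p at most 0.0474). Socs1, the feedback inhibitor of JAK signalling, gave 3.19, 4.97 and 3.19 in WT and 6.22, 4.78 and 6.74 in AMPK KO, with 1 overlapping sample in each group (2.13 ± 0.48, limma adjusted p = 0.0196). The Socs1 call was lost without the first WT sample (0.145), the third WT sample (0.129) or the first AMPK KO sample (0.0980), and also with robust spread (0.192) and with voom (0.0507).

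**Figure D4:**
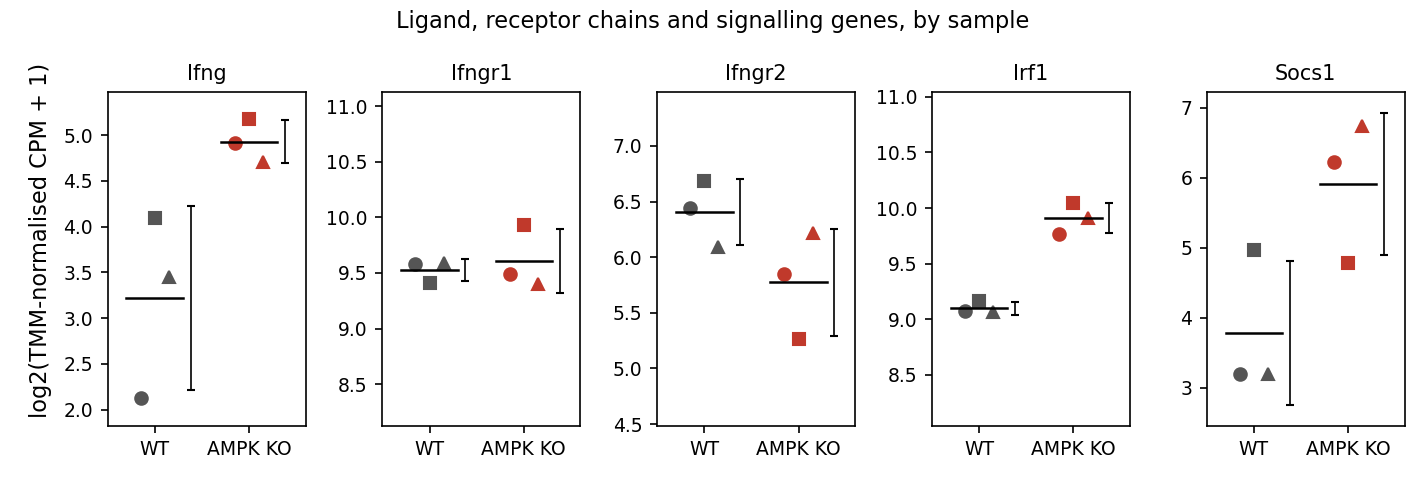
Values of Ifng, its receptor chains, Irf1 and Socs1, as log2(TMM-normalised CPM + 1), in WT (grey) and AMPK KO (red), with circle, square and triangle for replicates 1, 2 and 3, a line at the mean and a bar of 1 SD on each side. Ifng and Irf1 are higher in every AMPK KO sample, and the other 3 genes overlap between the groups.

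Set beside Irf1 sample by sample, a comparison made after the values were seen, all 10 GTPase genes lost ground: Irf1 minus the gene was larger in AMPK KO by 0.41 (Iigp1) to 1.51 (Gbp7) on the log2 scale. For 6 of the 10 the groups of this difference did not overlap. The same was true of 63.0% of all tested genes, so this describes Irf1 rather than the GTPases.

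Targets of IFN-γ outside the GTPases were 4 higher and 0 lower of 21 tested, where 2.54% of all tested genes were called higher and 3.10% lower. Their median log2 fold change was 0.53, beside 0.02 over all tested genes. Cxcl10, a chemokine, gave 1.76, 2.89 and 1.71 in WT and 4.09, 3.95 and 4.24 in AMPK KO (1.98 ± 0.37, limma adjusted p = 0.0074). Ifi30, a lysosomal thiol reductase of antigen-presenting cells, rose by 1.14 ± 0.25 (0.0156), the adhesion molecule gene Icam1 by 0.95 ± 0.21 (0.0198) and the inflammatory caspase gene Casp4 by 1.24 ± 0.29 (0.0229). In all 4 every AMPK KO sample lay above every WT sample, as in 9 of the 21, where 11.6% of all tested genes did. All 4 calls were lost without the first WT sample (adjusted p 0.0608 to 0.120) and without the third WT sample (0.0528 to 0.114), and all but Cxcl10 without the first AMPK KO sample (0.0842 to 0.129). Icam1 (0.0592) and Casp4 (0.0759) were lost without the third AMPK KO sample as well.

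Purity of CD4 T cells after bead isolation is given as above 90% in the reporting summary. Markers of several cell types differed between the genotypes. Of 19 tested macrophage and monocyte markers, 10 were higher in AMPK KO and 0 lower, and their summed level was 578 to 659 CPM in WT and 1117 to 1953 CPM in AMPK KO, with 0 of the 20 listed at 0 in all samples. Of 15 T cell markers, 5 were lower (Cd3e, Cd3g, Cd28, Tcf7 and Bcl11b) and 1, Thy1, was higher, with sums of 3911 to 4158 CPM in WT and 3144 to 3599 CPM in AMPK KO. Of 7 plasma cell markers, 1 was higher, Jchain (log2 fold change 2.60, limma adjusted p = 5.8e-08), with sums of 214 to 278 CPM in WT and 566 to 574 CPM in AMPK KO. The sum includes Xbp1, which the paper reports as upregulated in AMPK-deficient CD4 T cells. Of 9 CD8 T cell and NK cell markers, 1 was higher, Klrc1, with sums of 322 to 419 CPM in WT and 494 to 583 CPM in AMPK KO; these cells can make Ifng. Of 11 neutrophil markers, 2 were lower (Ngp and Ltf), with sums of 803 to 919 CPM in WT and 532 to 770 CPM in AMPK KO. The B cell (11 tested), dendritic cell (9) and erythroid (7) lists held 0 calls by limma, with 1, 2 and 0 genes at an unadjusted p under 0.05. With 1 sample left out at a time, a check added after the values were seen, the macrophage markers had 7 to 12 calls higher, the T cell markers 1 to 7 lower and 0 to 1 higher, the neutrophil markers 1 to 4 lower, the CD8 and NK cell markers 1 to 3 higher and the plasma cell markers 1 to 2 higher. The T cell markers had 1 lower call without the first WT sample, 2 without the third WT sample or the first AMPK KO sample, 3 without the third AMPK KO sample and 7 without the second AMPK KO sample, and Tcf7 alone was lower in every case. Among all tested genes 2.54% were called higher and 3.10% lower with all 6 samples. The calls over all genes moved with the sample left out as well, from 637 with all 6 samples. They were 127 without the first WT sample, 133 without the third WT sample and 173 without the first AMPK KO sample. Without the second AMPK KO sample they were 1243, and without the third 459. Macrophages also express GBPs, IRGs, Cxcl10 and Ifi30, and the part of any of these cells in the values of the GTPase genes and of Ifng was not tested.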

How the data were processed

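RNA of 6 samples was made into QuantSeq 3′ libraries from 500 ng each and sequenced by a company (Ebiogen). The submitters' processing notes name Bowtie2, bedtools and the mm10 build. The annotation and strand setting are not given in the sources used here. The authors deposited log2 values of TMM and CPM normalised reads plus 1, and 100% of values up to 100 reads lay within 0.1 of whole reads, from which reads and depths were recovered.

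Genes with a mean of at least 1 were tested (11279) with limma 3.58.1 in R 4.3.3 (lmFit, and eBayes with a trend), genotype as the only term, two-sided, Benjamini-Hochberg adjusted over all genes tested, threshold 0.05. The fit was tested on simulated data. The exact permutation test cannot go below 0.1 with 3 against 3. The study states that the samples were biologically independent. Samples were grouped by titles. The GTPase genes and all lists were chosen with earlier results of these data known. Named were all 10 GTPase genes, of other lists the genes past the threshold plus Ifng, Ifngr1, Ifngr2 and Irf1, the 5 nearest profiles, and Prkaa1; other genes were named after their values were seen. Alternatives were quantile normalization, scaling outside Rn45s, pseudocounts of 0.5 and 5, no filter, a stricter filter (mean of at least 3), a replicate block, robust spread, voom on recovered reads, and leaving out each sample. Some items of the lists are not reported here.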

Additional observations from a re-analysis of the deposited data

How the results depend on the processing

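None of 149 values of the 10 GTPase genes under 15 alternatives passed the threshold. The direction reversed for 5 genes. With 1 sample left out at a time, log2 fold changes ran from -0.16 to 0.17 (Gbp2), -0.091 to 0.29 (Gbp4), -0.094 to 0.33 (Gbp5), -0.089 to 0.43 (Irgm1), -0.69 to 0.53 (Irgm2) and -0.082 to 0.19 (Ifngr1). Scaled to the reads outside Rn45s, Gbp4 was -0.021. That scaling moved the median of all genes by -0.06 and the share of calls that were higher from 45.1% to 32.5% (722 calls). The count over all genes, 637, was 308 with no filter and 127 to 1243 with 1 sample left out. With a replicate block it was 102; replicate numbers did not pair the samples (correlations of deviations -0.08, -0.32 and -0.16). The cause was not tested. With 1 sample left out, counts were 0 to 4 for the relatives, 1 to 5 for the IFN-γ signalling genes, 0 to 6 for the other targets, 0 to 4 for the type I genes and 0 to 1 for the vacuole machinery; 2 to 5 of the 10 genes did not overlap (over all tested genes, 14.8% to 21.2% were wholly above and 16.7% to 21.6% wholly below), and the 10 genes' median log2 fold change was -0.09 to 0.21. With no filter these 5 lists, in that order, had 0, 1, 2, 0 and 0 calls, and with the replicate block 0 each. The relatives' single call was also lost under quantile normalization, a pseudocount of 0.5 and voom (0 calls each). Read depth was lowest for Irgm1 among the 10 genes, at 46 to 128 reads a sample.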

Other observations

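Type I interferon genes, which share ISRE-driven control with the GBPs, had mostly lower means in AMPK KO. Of 24 tested, 1 was higher in AMPK KO and 2 were lower, where 2.54% of all tested genes were called higher and 3.10% lower. Means were lower for 19 of the 24, against 5502 of all 11279 genes, and the median log2 fold change was -0.30, against 0.02. Isg15, a ubiquitin-like modifier, gave 4.61, 4.84 and 4.55 in WT and 5.63, 5.24 and 5.77 in AMPK KO (log2 fold change 0.88 ± 0.21 (SE, n = 3 per group), limma adjusted p = 0.0275). Ddx58, which encodes the RNA sensor RIG-I, gave 5.63, 5.90 and 6.08 in WT and 5.14, 5.01 and 5.19 in AMPK KO (-0.75 ± 0.19, limma adjusted p = 0.0324). Rtp4 gave 6.05, 5.42 and 5.83 in WT and 4.72, 5.21 and 4.69 in AMPK KO (-0.90 ± 0.22, limma adjusted p = 0.0313). All 3 calls were lost without the first WT sample (adjusted p 0.0700 to 0.174), the third WT sample (0.129 to 0.172) or the first AMPK KO sample (0.115 to 0.137), and Isg15 and Rtp4 also without the third AMPK KO sample (0.0896 and 0.0678), Ddx58 without the second WT sample (0.0613).

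The ubiquitin-like conjugation machinery that brings GBPs and IRGs to vacuoles (the Atg5-Atg12-Atg16l1 complex, Atg3, Atg7, the LC3 and GABARAP proteins and Sqstm1) held 0 called genes of 11 tested by limma, where 2.54% of all tested genes were called higher and 3.10% lower. It also held 0 at an unadjusted p under 0.05 (limma), where 21.3% of all tested genes were. By voom 0 were called as well. Log2 fold changes ran from -0.52 (Atg7) to 0.49 (Atg3). Without the second AMPK KO sample 1 gene was called, Atg7 (limma adjusted p = 0.0375). That fit called 1243 of all genes, against 637 with all 6 samples.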
